A study of Mus musculus with 13 samples.

Results

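Transcripts of 10 genes of the antioxidant and glutathione systems were followed in interscapular brown adipose tissue (iBAT) of mice on a high-fat diet (HFD). The genes were given by symbol, with earlier results of these data known, and each of the 10 was matched to 1 Ensembl identifier among the 42416 in every count file. They were Nqo1 and Hmox1, Gclc and Gclm, Gpx1, Gpx3 and Gpx4, Txnrd1 and Prdx3, and Sod2. Bulk RNA sequencing gave 13 libraries, 1 per mouse. Of these, 8 were labelled iFAXLKO (loxP-Axl-loxP, Cre+) and 5 WT (floxed Axl, Cre-). All 13 mice carried the floxed Axl alleles, were housed at room temperature on HFD and were given tamoxifen at intervals of 3 weeks, so that by design the groups differed in the Cre transgene. Per the study, the animals were female littermates and the transgene was Adipoq-CreERT2, a tamoxifen-inducible Cre driven by a bacterial artificial chromosome around Adipoq, which is active in adipocytes and not in the other cells of the depot. The labels give no age.

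Reactive oxygen species are formed in mitochondria during respiration, and brown adipocytes respire at a high rate. Superoxide is converted to hydrogen peroxide by superoxide dismutases, and the peroxide is then reduced by peroxiredoxins, by glutathione peroxidases or by catalase. Glutathione, a tripeptide made from glutamate, cysteine and glycine, supplies the electrons for the glutathione peroxidases, and thioredoxin those for the peroxiredoxins. The transcription factor NRF2 (Nfe2l2), held in check by KEAP1, binds antioxidant response elements and raises the transcription of Nqo1, Hmox1, Gclc, Gclm and Txnrd1 under oxidative or electrophilic stress.

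Of the 10 genes, 4 encode selenoproteins, and their coding sequences are shown because the codon that sets these enzymes apart can be read in them. Selenocysteine, the residue that attacks the peroxide or disulfide, is inserted at an in-frame TGA, a triplet that otherwise ends translation. In each line below the TGA is in capitals, within coding sequence of GENCODE M21 transcripts (GRCm38), 5′ to 3′ on the gene's strand.
Gpx1: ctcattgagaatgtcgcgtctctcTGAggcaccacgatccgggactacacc
Gpx3: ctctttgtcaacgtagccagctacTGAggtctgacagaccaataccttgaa
Gpx4: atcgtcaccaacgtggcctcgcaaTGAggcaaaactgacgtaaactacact
Txnrd1: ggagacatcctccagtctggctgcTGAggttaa
In the 3 peroxidases the TGA lay before the middle of the reading frame, whereas in Txnrd1 it was the codon before the last. It was codon 47 of 201 in Gpx1 (chr9:108339451-108339453), codon 73 of 226 in Gpx3 (chr11:54907256-54907258) and codon 73 of 197 in Gpx4 (chr10:80054737-80054739), all on the plus strand. In Txnrd1 it was codon 498 of 499 (chr10:82896037-82896039, plus strand), next to a cysteine codon, and the last line runs through the stop codon.

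Total counts per library were between 22.44 and 32.6 M, and mitochondrially encoded genes took 18.33% to 21.31% of them. The floxed gene, Axl, did not have less transcript in libraries labelled iFAXLKO (33.1 ± 6.16 CPM, SD, n = 8) than in WT (27.8 ± 3.82 CPM, SD, n = 5), and its log2 fold change was 0.25 (standard error 0.13, adjusted p 0.699). CPM are counts per M counts of a library, scaled with TMM factors, and a fold change is iFAXLKO over WT. Adipoq, from whose locus the transgene was built, and its neighbour Eif4a2, both named after their values were seen, did separate the labels. Adipoq was at 1120 ± 132 CPM in iFAXLKO and 708 ± 92.7 CPM in WT (log2 fold change 0.66, adjusted p 0.0118), and Eif4a2 at 1041 ± 100.1 and 238 ± 23.0 CPM (2.13, adjusted p 3.18e-09), without overlap of the groups in either. These values follow the Cre labels, whereas a loss of Axl is not seen in its counts, which are summed over the gene and come from every cell type of the tissue. Brown adipocyte markers were high in every library, at 7693 to 11846 CPM summed over 9 genes in the libraries labelled iFAXLKO and 9782 to 14601 in WT. WT replicate 2 stood apart, with the highest sums of the brown adipocyte (14601 CPM) and general adipocyte markers (15379 CPM), where the other 4 WT libraries had at most 10931 and 11100 CPM. It also had the highest erythroid sum (709 CPM) and the lowest endothelial sum (652 CPM) of the 13 libraries. In edgeR's quasi-likelihood test 17 of 13360 genes (0.127%) had an adjusted p under 0.05, 0.0973% of genes being higher and 0.0299% lower in iFAXLKO, and 0.0898% were also changed at least 2-fold. The level of a transcript in whole tissue does not tell fewer cells of a type from less RNA per cell.

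Of the 10 genes, 0 passed the adjusted limit in the libraries labelled iFAXLKO against WT, by edgeR, by DESeq2 (which called 0.502% of its genes) or by limma-voom. At an unadjusted edgeR p under 0.05 there were 3 (Txnrd1, Hmox1 and Prdx3), all with a negative log2 fold change, where 7.38% of all genes were under that limit, 3.84% with a positive and 3.54% with a negative value. Without WT replicate 2 the count was 5 (1594 of all genes, beside 986 with all libraries). Of the 5, Hmox1, Txnrd1, Gclc and Gclm were negative and Gpx1 was positive (0.22), while Prdx3 had an unadjusted edgeR p of 0.104. The count was 1 without WT replicate 3 (955 of all genes) and 0 with a fibroblast score as a covariate (178 of all genes). With all libraries, whatever the p, the value was negative for 8 of the 10 and for 53.6% of all genes. It was positive for the other 2 and for 46.4% of all genes. The median log2 fold change of the 10 was -0.12, beside -0.01 for all genes tested, and it stayed between -0.15 and -0.08 when 1 library was left out. Markers of adipocytes had values of the same sign. Of the brown adipocyte markers 8 of 9 were negative (median -0.15), and of the general adipocyte markers 5 of 5 (median -0.08). Skeletal muscle markers were negative in 10 of 10 (median -0.27). Their sum ran from 2.83 to 5225 CPM in the libraries labelled iFAXLKO and from 21.6 to 3616 CPM in WT. The medians were 0.69 for fibroblast, 0.41 for macrophage, 0.34 for erythroid and 0.18 for endothelial markers. With a skeletal muscle score as a covariate the median of the 10 genes was -0.11. Fibroblast markers went with the labels, so the fibroblast covariate cannot tell these cells from the label. Beyond the skeletal muscle covariate, the part of the marked cell types in the values of the 10 was not tested. The CPM ranges of the groups overlapped for all 10, and did not overlap for 0.434% of all genes. The 10 were read from the same libraries and are not replicates of each other.

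**Figure D1:**
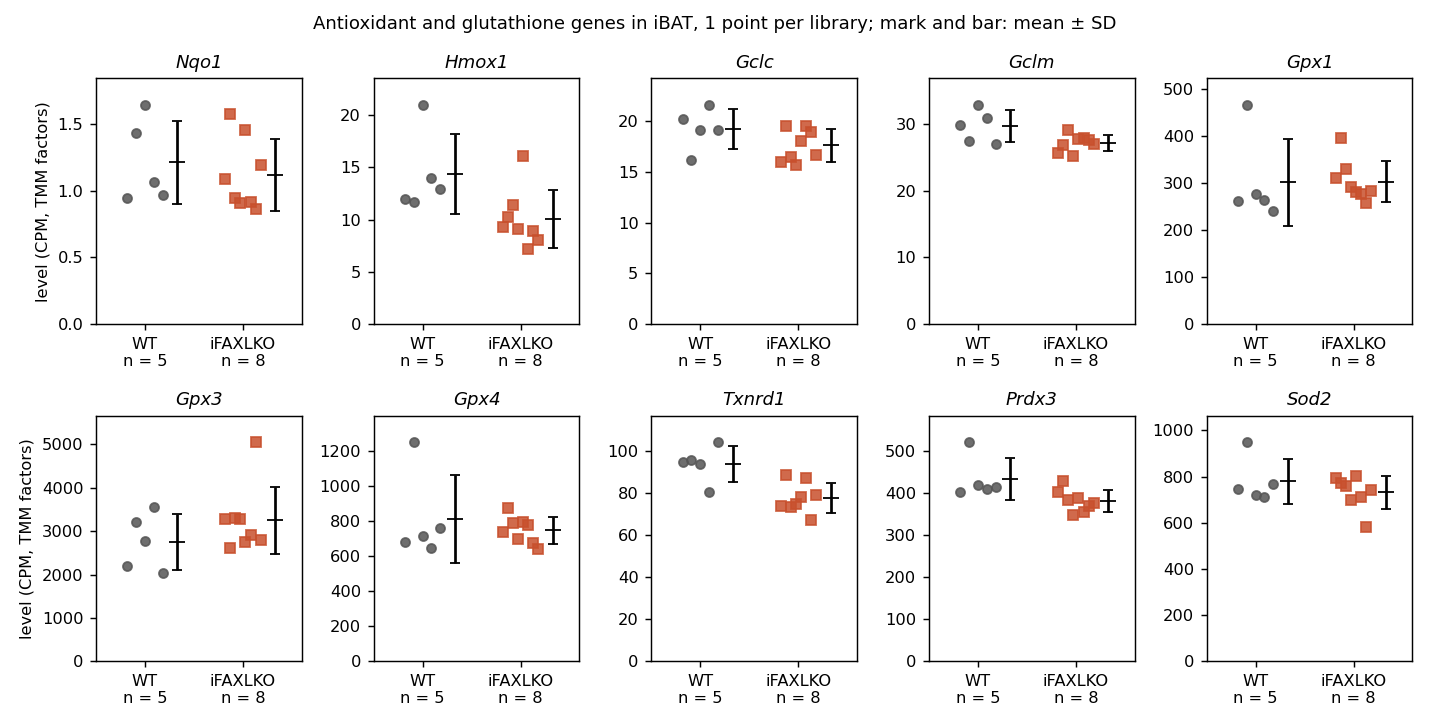
CPM with TMM factors (y axis of each panel, starting at 0) of the 10 genes, with 1 point per library, circles for WT (n = 5) and squares for iFAXLKO (n = 8), and a mark and bar for the mean ± SD. The groups overlap in every panel, and WT replicate 2 is the highest point of Gpx1 (467), Gpx4 (1248), Prdx3 (521) and Sod2 (949).

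Per length, the 10 transcripts spanned from one of the most abundant of the tissue to one near the filter. Levels between genes were compared as mean CPM per kb of merged exons over all 13 libraries. Gpx3, which encodes the secreted peroxidase of plasma, led with 1688 ± 411 (SD, n = 13) and ranked 20th of 13344 genes tested with a length. Gpx4, the peroxidase of lipid hydroperoxides in membranes, followed with 447 ± 91.9 (rank 110), Prdx3, the peroxiredoxin of the mitochondrial matrix, with 271 ± 29.5 (rank 176), and Gpx1, the cytosolic and mitochondrial peroxidase, with 210.4 ± 43.9 (rank 221). Sod2, the manganese superoxide dismutase of mitochondria, had 75.0 ± 8.13 (rank 537). The NRF2-induced genes lay far below these. Txnrd1, cytosolic thioredoxin reductase, had 11.8 ± 1.54 (rank 3033) and Hmox1, which opens the heme ring and yields biliverdin, iron and carbon monoxide, 6.68 ± 2.14 (rank 4815). The catalytic and modifier subunits of glutamate-cysteine ligase, which makes the first step of glutathione synthesis, were nearly level, with 4.84 ± 0.496 for Gclc (rank 5935) and 4.47 ± 0.336 for Gclm (rank 6233). Nqo1, a quinone reductase, was last with 0.744 ± 0.178 (rank 11568) and rested on 22 to 56 reads per library.

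**Figure D2:**
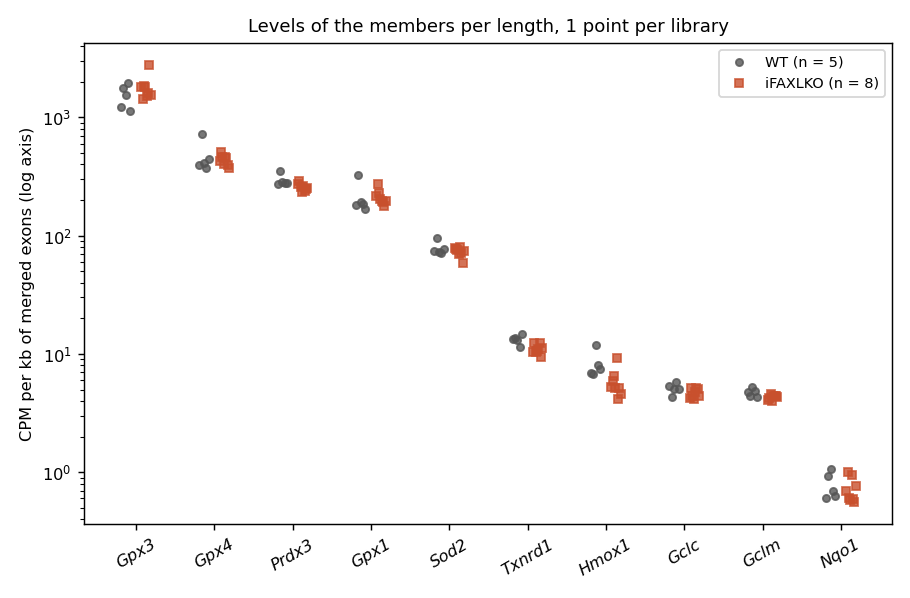
CPM per kb of merged exons (log axis) of the 10 genes in order of their mean, with 1 point per library (circles WT, n = 5; squares iFAXLKO, n = 8). Gpx3 is at 1119 to 2788 in all libraries and Nqo1 at 0.556 to 1.06, and Hmox1, Gclc and Gclm overlap.

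Each gene of this order exceeded the next in 13 of 13 libraries, except that Hmox1 exceeded Gclc in 12 and Gclc exceeded Gclm in 10. With the length of the principal transcript in place of merged exons, chosen after seeing the data, Gpx1 (283) changed places with Prdx3 (271), and the order of the others was kept. The levels of Gpx1, Gpx4 (804), Sod2 (128), Txnrd1 (23.7) and Gclm (5.03) rose by more than their SD over libraries. The levels thus depend on the length used, and the ranks were not repeated with it. Of the 10 genes only Gclm shared annotated exon bases with other genes, 4.71% with Gm17494 on the opposite strand and 3.88% with Gm6061 on its own, and the strand setting of the counting is not given in the sources used here.

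Among the NRF2-induced enzymes Hmox1 had the most negative fold change of the 10, and Nqo1 was close to WT. Hmox1 (ENSMUSG00000005413, chr8:75093621-75100589, plus strand) was at 12.0, 11.7, 21.004, 14.0 and 12.9 CPM in WT replicates 1 to 5. In iFAXLKO replicates 1 to 8 it was at 9.28, 10.3, 11.4, 9.08, 16.1, 7.22, 8.94 and 8.08 CPM. Thus 7 of the 8 libraries labelled iFAXLKO lay under the lowest WT library, and replicate 5 lay above 4 of the 5 WT libraries. The level was 69.9% of WT, a log2 fold change of -0.52 (standard error 0.18, 95% interval -0.90 to -0.13; adjusted p 0.512, exact permutation p 0.0249). Without WT replicate 3, the highest of all, it was -0.32, and without iFAXLKO replicate 5 it was -0.65 (adjusted p between 0.153 and 0.940 over the 13 such fits).

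The libraries were put in order of the library numbers in their labels. They were then cut into a lower range of 6 libraries (4 iFAXLKO, 2 WT) and an upper range of 7 (4 iFAXLKO, 3 WT). The cut was made by order only and is not part of the labels. The difference of the mean log2 CPM of Hmox1 was -0.25 in the lower range and -0.70 in the upper. Macrophages are a known site of Hmox1 expression, and 8 of 8 macrophage markers had a positive log2 fold change (median 0.41, 7 at an unadjusted edgeR p under 0.05, 0 called). Their summed level was 131.7 to 264 CPM in the libraries labelled iFAXLKO and 112 to 162 CPM in WT, the opposite direction to that of Hmox1, and their part in its level was not tested.

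Nqo1 (ENSMUSG00000003849, chr8:107388225-107403206, minus strand) ran from 0.949 to 1.65 CPM in WT (median 1.07) and from 0.864 to 1.57 CPM in the libraries labelled iFAXLKO (median 1.02). Its log2 fold change was -0.12 (standard error 0.20, 95% interval -0.55 to 0.31, adjusted p 0.947). The groups overlapped over nearly their whole range, and the interval of this gene was the widest of the 10.

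Both subunits of glutamate-cysteine ligase had the same small fold change, at about 91% of WT. Gclc (ENSMUSG00000032350, chr9:77754535-77794485, plus strand) ran from 16.2 to 21.6 CPM in WT (median 19.2) and from 15.7 to 19.6 CPM in iFAXLKO (median 17.4), a log2 fold change of -0.13 (standard error 0.08, 95% interval -0.31 to 0.05, adjusted p 0.771). Gclm (ENSMUSG00000028124, chr3:122245557-122270732, plus strand) was at 29.9, 27.5, 32.9, 30.9 and 27.1 CPM in WT. In the libraries labelled iFAXLKO it was at 25.6, 26.9, 29.1, 25.2, 27.7, 27.9, 27.6 and 27.0 CPM. All 8 lay under the WT mean of 29.6 CPM, and 4 under the lowest WT library. Its log2 fold change was -0.13 (standard error 0.06, 95% interval -0.26 to 0.01, adjusted p 0.698, exact permutation p 0.0303), so a 2-fold change of either subunit lay outside its interval. Without WT replicate 3, the highest library of Gclm, the value of this gene was -0.07 (unadjusted edgeR p 0.288).

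With all 13 libraries none of the 3 glutathione peroxidases reached an unadjusted edgeR p under 0.05, and single libraries moved the value of each. Gpx3 (ENSMUSG00000018339, chr11:54902453-54910377, plus strand) was at 2197, 3209.8, 2779, 3555 and 2029 CPM in WT and at 3285, 2608, 3309, 3278, 2754, 2923, 5055 and 2809 CPM in the libraries labelled iFAXLKO. Replicate 7 of iFAXLKO was above every other library, and the other 7 lay within the WT range. The log2 fold change was 0.24 (standard error 0.17, 95% interval -0.12 to 0.60, adjusted p 0.809, exact permutation p 0.214), the most positive of the 10, and 0.12 without that library.

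Fibroblast markers lay higher in the libraries labelled iFAXLKO, as the mean of Gpx3 did. All 8 of them had a positive log2 fold change (median 0.69, 8 at an unadjusted edgeR p under 0.05, 0 called), with a summed level of 535 to 1183 CPM in the libraries labelled iFAXLKO and 387 to 693 CPM in WT. With a fibroblast score as a covariate the log2 fold change of Gpx3 was -0.12 (adjusted p 1.00), and that of Gpx1 -0.13 (adjusted p 1.00). The summed level was above the WT mean in 8 of 8 libraries labelled iFAXLKO (exact permutation p 0.0155), so this covariate largely follows the labels. The fit cannot tell these cells from the label, and their part in the level of either gene was not tested.

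Gpx1 (ENSMUSG00000063856, chr9:108338903-108340343, plus strand) was at 261, 467, 276, 265 and 241 CPM in WT and at 259 to 397 CPM in iFAXLKO (median 287.7). Its log2 fold change was 0.01 (standard error 0.15, 95% interval -0.31 to 0.33, adjusted p 0.996). Without WT replicate 2 it was 0.22 (unadjusted edgeR p 0.0476, adjusted p 0.414). Gpx4 (ENSMUSG00000075706, chr10:80047166-80056439, plus strand) was at 677, 1248, 714, 645 and 761 CPM in WT and at 639 to 875 CPM in iFAXLKO (median 755). Its log2 fold change was -0.12 (standard error 0.14, 95% interval -0.42 to 0.19, adjusted p 0.916), and 0.10 without WT replicate 2. For both genes the other 4 WT libraries lay among or below those labelled iFAXLKO, so that the sign of Gpx4 rested on that 1 library.

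In the thioredoxin system both genes lay under the WT mean in 8 of 8 libraries labelled iFAXLKO. For Prdx3 that mean was raised by WT replicate 2. Txnrd1 (ENSMUSG00000020250, chr10:82833951-82897712, plus strand) was at 94.4, 95.7, 93.7, 80.5 and 104.0 CPM in WT. In iFAXLKO it was at 73.8, 88.3, 73.1, 74.9, 77.8, 87.2, 67.1 and 79.0 CPM. Of these 8 libraries 6 lay under the lowest WT library, and none reached the other 4 WT libraries. The level was 82.9% of WT, a log2 fold change of -0.27 (standard error 0.08, 95% interval -0.44 to -0.10), and its adjusted p of 0.436 was the smallest of the 10 (exact permutation p 0.00699). The smallest exact p that the 1287 splits of 8 and 5 libraries allow is 0.000777. The exact p were not adjusted for the number of genes. Those of Gclc, Sod2, Nqo1, Gpx4 and Gpx1 were 0.129, 0.398, 0.554, 0.709 and 0.809.

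The log2 difference of Txnrd1 was -0.30 in the lower range of library numbers and -0.25 in the upper, and the fold change stayed between -0.32 and -0.23 when 1 library was left out. With the fibroblast score as a covariate it was -0.17. The adjusted p ran from 0.140 to 1.00 over the alternatives that left out no library in turn.

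Prdx3 (ENSMUSG00000024997, chr19:60864051-60874556, minus strand) was at 401, 521, 419, 409 and 413 CPM in WT. In the libraries labelled iFAXLKO it was at 402, 427, 384, 347, 388, 355, 369 and 375 CPM. Here too 6 of 8 lay under the lowest WT library. The WT mean, 433 CPM, was raised by replicate 2, and every other WT library lay under it as well. The level was 88.0% of WT, a log2 fold change of -0.18 (standard error 0.08, 95% interval -0.36 to -0.01, adjusted p 0.636, exact permutation p 0.0132). It was -0.11 without WT replicate 2, the highest library (unadjusted edgeR p 0.104).

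Sod2 (ENSMUSG00000006818, chr17:13006846-13040063, plus strand), which makes the peroxide that Prdx3 removes in the same compartment, was at 745, 949, 721, 713 and 767 CPM in WT and ran from 584 to 803 CPM in iFAXLKO (median 750.2). Its log2 fold change was -0.09 (standard error 0.09, 95% interval -0.29 to 0.11, adjusted p 0.898) and -0.01 without WT replicate 2. The lowest of the 13 libraries was iFAXLKO replicate 7, which also had the highest Gpx3, the lowest Txnrd1 and the lowest sum of brown adipocyte markers (7693 CPM).

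**Figure D3:**
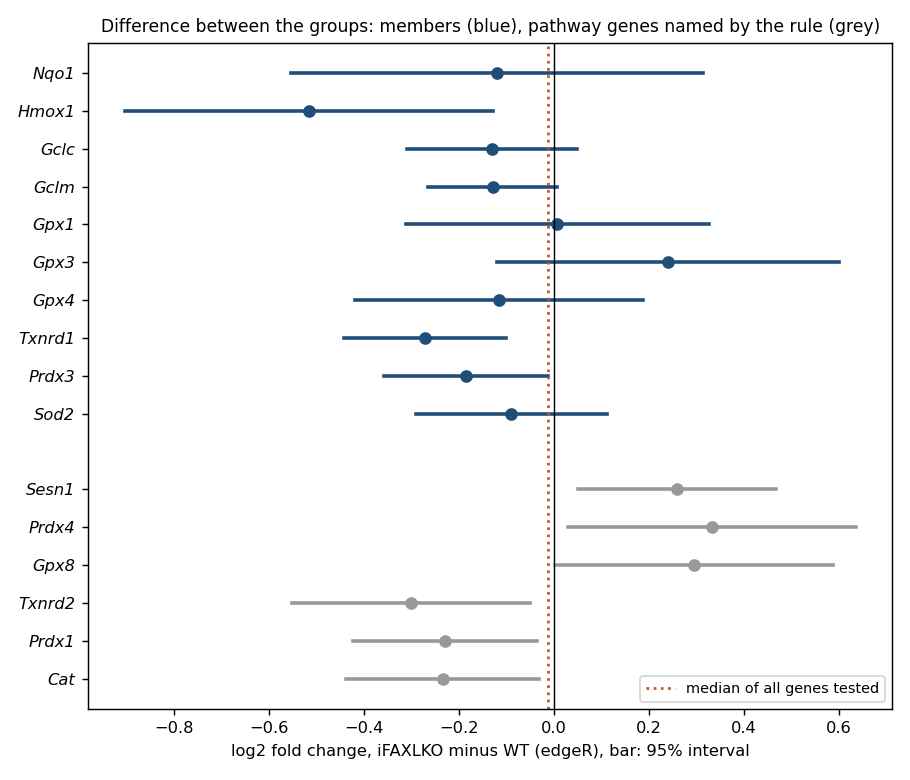
Log2 fold change, iFAXLKO minus WT (x axis), with the 95% interval from edgeR for the 10 genes (blue) and the 6 further genes of the antioxidant list named by the rule (grey), and a dotted line at the median of all genes tested (-0.01). The intervals of Hmox1, Txnrd1 and Prdx3 lie below 0, and that of Gpx3 reaches 0.60.

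The 10 genes did not vary together across mice as 1 program. Of the 45 pairs, with group means subtracted from log2 CPM over the 13 libraries, 26 had a positive and 19 a negative Pearson r, and the median r was 0.07. A single pair, Gpx3 with Txnrd1, had an adjusted permutation p under 0.05. The libraries with the most Gpx3 had the least Txnrd1, with an r of -0.81 (permutation p 0.00038, on adjustment 0.0171) and a Spearman's rho of -0.70 (permutation p 0.0102, on adjustment 0.115), so the rank measure did not pass. With the 2 libraries of the most extreme Gpx3 left out r was -0.69, without WT replicate 2 it was -0.86, and within the lower and upper library numbers it was -0.54 and -0.89.

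**Figure D4:**
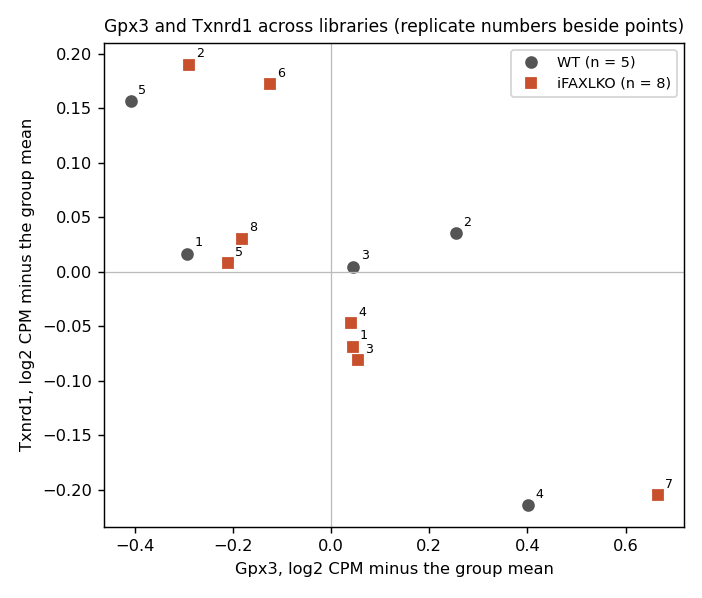
Log2 CPM minus the group mean of Gpx3 (x axis) and Txnrd1 (y axis), with 1 point per library and its replicate number (circles WT, n = 5; squares iFAXLKO, n = 8). The points fall from upper left to lower right (r -0.81), with iFAXLKO replicate 7 and WT replicates 4 and 5 at the ends.

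Gpx1, Gpx4, Prdx3 and Sod2, the peroxidases and dismutase with a mitochondrial form, had r between 0.72 and 0.89 in all their 6 pairs, a set chosen after these values were seen. None of these passed after adjustment (adjusted permutation p 0.0918 to 0.101). With the 2 most extreme libraries left out r was 0.40 to 0.55, so that the relation rested in good part on them, and it was 0.52 to 0.77 without WT replicate 2. Within the lower library numbers r was 0.88 to 0.99 and within the upper -0.02 to 0.48. WT replicate 2 and iFAXLKO replicates 2 and 3 were above their group means for all 4 genes. Among the NRF2-induced genes, Hmox1 and Nqo1 had the highest r, 0.58 (permutation p 0.0469, which became 0.234 on adjustment). Their rho was 0.47 (permutation p 0.124, on adjustment 0.372). Their r was 0.47 with the 2 most extreme libraries left out, and 0.07 and 0.82 within the lower and upper library numbers. The other pairs of Nqo1, Hmox1, Gclc, Gclm and Txnrd1 had r from -0.26 (Gclm with Txnrd1) to 0.50 (Hmox1 with Gclm). Nqo1 had a higher r with Prdx3 (0.64, adjusted permutation p 0.117).

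**Figure D5:**
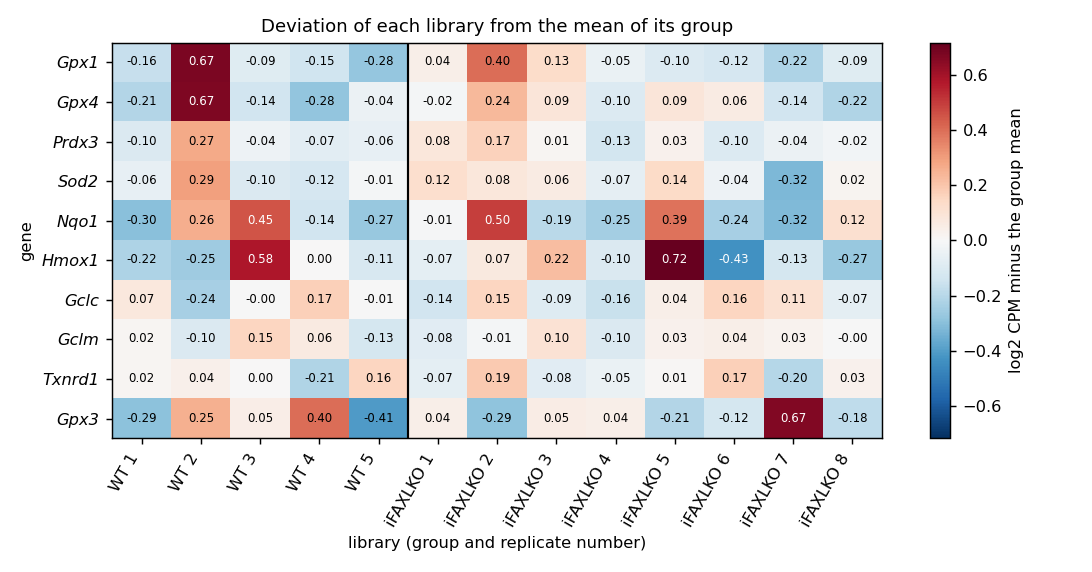
Log2 CPM minus the mean of the library's group (colour and printed value) for the 10 genes in rows and the 13 libraries in columns, with a line between WT and iFAXLKO. WT replicate 2 is high in the upper 4 rows, and Hmox1 is highest in WT replicate 3 and iFAXLKO replicate 5.

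By the same measure over 13 libraries, each gene's likeness to every gene tested was ranked. The most alike to Hmox1 were Uap1l1 (r 0.94), Ubtf (0.89) and Dnajb1 (0.89), and to Txnrd1 Wfs1 (0.94), Kctd3 (0.93) and Stk40 (0.91). Gpx3 was most like Crls1 (0.94), Cfd (0.93) and Smim24 (0.92). Gpx1 was most like Dap3 (0.96), Gm26881 (0.96) and Fabp4 (0.95), Gpx4 like Psmd8 (0.97), Higd2a (0.97) and Bola3 (0.96), and Prdx3 like Park7 (0.94), Fabp4 (0.93) and Galk2 (0.92). Sod2 was most like Ndufab1 (0.98), Afg1l (0.97) and Bcap31 (0.96). Nqo1, Gclc and Gclm reached at most 0.88, 0.88 and 0.87, with Gm44641, 4931428F04Rik and Asah1. These are the highest values among all genes tested, and the genes share the libraries and their depth.

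A wider list of 104 antioxidant genes, without the 10, covered glutathione synthesis and turnover, transferases, the thioredoxin system, NRF2 and its regulators, heme and iron handling, NADPH supply and selenoproteins. Of these 96 were tested and 0 were called. At an unadjusted edgeR p under 0.05 there were 10, 3 with a positive and 7 with a negative log2 fold change, which is 10.4% beside 7.38% of all genes. A negative value was found for 62 of 96 (64.6%, beside 53.6% of all genes), and the median was -0.06. Without WT replicate 2 the median was 0.01, and 15 genes of the list had an unadjusted p under 0.05, as the count over all genes went from 986 to 1594. That count of the list was 4 without WT replicate 5 (675 of all genes), 5 without iFAXLKO replicate 7 (815), and 6 without iFAXLKO replicate 1 (886) or 4 (689) or WT replicate 1 (825), with 0 called in each.

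The thioredoxin, peroxiredoxin and glutaredoxin genes held 4 of those 10, with 12 of 18 negative. Txnrd2, the mitochondrial thioredoxin reductase, was at 112 ± 17.3 CPM in WT (SD, n = 5) and 91.0 ± 13.8 CPM in iFAXLKO (SD, n = 8), with each of the 8 libraries under the WT mean and a log2 fold change of -0.30 (standard error 0.12, adjusted p 0.571). Prdx1, a cytosolic peroxiredoxin, was at 355 ± 61.8 and 303.3 ± 13.01 CPM, with a log2 fold change of -0.23 (standard error 0.09, adjusted p 0.593). Again all 8 were under the WT mean, which was raised by WT replicate 2 (464 CPM). Every other WT library lay under that mean too, at no more than 339 CPM. Prdx4, the peroxiredoxin of the endoplasmic reticulum, went the other way, with 7.91 ± 2.195 CPM in WT and 9.95 ± 1.11 CPM in iFAXLKO. Its log2 fold change was 0.33 (standard error 0.14, adjusted p 0.628), with 8 of 8 above the WT mean and 1 above the highest WT library. Sesn1, a stress-induced sestrin, had 14.3 ± 2.23 and 17.1 ± 1.46 CPM, a log2 fold change of 0.26 (standard error 0.10, adjusted p 0.550). Here also 8 of 8 were above the WT mean, and 3 were above the highest WT library.

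Of the other peroxide-removing enzymes, Cat, catalase of peroxisomes, was at 937 ± 112 CPM in WT and 797 ± 83.3 CPM in iFAXLKO, with a log2 fold change of -0.23 (standard error 0.10, adjusted p 0.614) and all 8 under the WT mean. Gpx8, a peroxidase of the endoplasmic reticulum that holds cysteine in place of selenocysteine, was at 34.9 ± 6.59 and 42.9 ± 7.17 CPM. Its log2 fold change was 0.30 (standard error 0.14, adjusted p 0.666), with 7 of 8 above the WT mean and 5 above the highest WT library. Over all 24 alternatives the signs of these 6 genes were kept, with 0 calls.

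The remaining genes under the unadjusted limit, chosen after their values were seen, were Gss, which completes glutathione (-0.18), Osgin1 (-0.37), the biliverdin reductase Blvra (-0.28) and Sqstm1 (-0.28), which encodes p62, a KEAP1-binding protein. Nfe2l2 itself had a log2 fold change of 0.07 (standard error 0.10, adjusted p 0.942) and Keap1 of -0.06 (standard error 0.06, adjusted p 0.898). Of the 10 genes tested for glutathione synthesis, transport and turnover 7 were negative (median -0.08), of the 20 glutathione S-transferases 11 (median -0.03), and of the 15 genes of selenoprotein synthesis and other selenoproteins 10 (median -0.06). Of the 6 genes of heme and iron handling 5 were negative (median -0.15), and of the 12 of NADPH supply and other NRF2-induced enzymes 8 (median -0.13). Of the 4 genes of superoxide dismutases and catalase 3 were negative (median -0.04), and of the 9 of NRF2 and its regulators 6 (median -0.03). The 2 other glutathione peroxidases tested were positive (median 0.17). Of all genes tested 53.6% were negative (median -0.01). Slc7a11, the cystine importer that supplies glutathione synthesis, was under the filter, with 0 to 2 reads per library.

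Promoter windows were searched for the core of the antioxidant response element, TGACNNNGC, on both strands, from 250 bases before to 50 after the start of each RefSeq transcript (GRCm38.p6). Windows were searched for 8 of the 10 genes, all but Hmox1 and Gclc. Matches were found in 2 of their 13 windows, beside 12.4% of all 32851 windows. By gene these were 2 of the 8, Gclm and Txnrd1, beside 14.0% of all genes with a window. A difference from these shares was not tested. Both matches lay on the strand opposite to the gene. The window of Nqo1, also an NRF2 target, had 0 matches, and so had the other windows of Txnrd1. Each match is in capitals in the gene-strand stretches below, which are shown because only these 2 windows held a match.
Gclm: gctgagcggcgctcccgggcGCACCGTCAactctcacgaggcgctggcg
Txnrd1: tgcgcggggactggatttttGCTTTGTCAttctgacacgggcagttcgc
The match began at -134 from the start in Gclm, in the window chr3:122245307-122245606, and at -92 in Txnrd1, in the window chr10:82858956-82859255, both on the plus strand. A match describes the letters in the window only, and no binding was measured here.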

How the data were processed

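Raw read counts per Ensembl gene were deposited by the authors for each of 13 iBAT libraries, as whole numbers for 42416 identifiers. Per the labels, polyadenylated RNA and a TruSeq kit were used, and the submitters' processing notes list bcl2fastq 2.20, fastp 0.20.0, STAR 2.7.4a, DESeq2 and GRCm38.p6, whereas the study's methods describe ribosomal depletion, Trim Galore and hisat2. Neither the counter nor its use of strand is given in the sources used here.

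Symbols came from a table of gene names (42263 identifiers matched), and positions and merged exon lengths from GENCODE M21 (GRCm38), counted from 1. Libraries held 22.44 to 32.6 M counts, and a count of 0 allows up to 3 counts, at most 0.134 CPM, for counting error only. Within each group every pair of libraries differed beyond sampling noise (lowest chi-square per degree of freedom 15.3), so each was 1 replicate. That each library is 1 mouse is taken from the labels' groups and the study.

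A gene was tested if 5 or more libraries had over 1 CPM of it (13360 genes). TMM factors scaled the counts, and the test was that of edgeR 4.0.16 (glmQLFit with robust dispersions, 2-sided, Benjamini-Hochberg over all genes tested, limit 0.05) in R 4.3.3. For log2 CPM the prior count was 2. Single values were compared by an exact permutation test of the difference of mean log2 CPM, 2-sided, over all 1287 splits. Correlations used log2 CPM minus group means, with 100000 permutations within groups, 2-sided, adjusted over 45 pairs. The scripts were tested on simulated data.

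The named genes were the 10, Axl, the called genes of the wider list or otherwise the 3 with the smallest p in each direction, and the 3 most alike to each gene. Of the wider list Nnt matched 2 identifiers and was left out, and 7 genes were under the filter. The genes and lists were chosen with earlier results of these data known. The alternatives were DESeq2 1.42.0, limma-voom with sample quality weights (limma 3.58.1), RLE factors, other library sizes, other filters, a block by replicate number, the range of library numbers, a skeletal muscle or a fibroblast score as a covariate, and each library left out in turn. The fit to the 10 same-numbered libraries without the block and the principal transcript lengths were chosen after seeing the data.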

Additional observations from a re-analysis of the deposited data

Results flagged for a closer look

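Within a group of libraries, a value was singled out where its gap to the nearest other library, divided by the range of the group, passed Dixon's 95% critical value. This held for 8 of 32 sets of gene and group. A chance rate of about 1 in 20 is for independent sets, whereas these shared their libraries, so the 2 cannot be compared. WT replicate 2 was the highest of its group for 5 genes, with 467 CPM for Gpx1 (next 276), 1248 CPM for Gpx4 (next 761), 521 CPM for Prdx3 (next 419), 949 CPM for Sod2 (next 767) and 464 CPM for Prdx1 (next 339). Hmox1 was high in WT replicate 3, at 21.004 CPM (next 14.0), and in iFAXLKO replicate 5, at 16.1 CPM (next 11.4). Gpx3 was high in iFAXLKO replicate 7, at 5055 CPM (next 3309). The causes of these values were not tested.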

How the results depend on the processing

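None of the 10 genes and none of the 96 further antioxidant genes was called under any of the 24 alternatives, of which 13 left out 1 library each. The count of genes called over all genes, 17, was 67 with DESeq2, 8 with the fibroblast score as a covariate, 7 with the replicate block and 14 to 19 when 1 library was left out. The block used 10 libraries, which without it gave 12, and 1 of the 10 genes was under an unadjusted p of 0.05 in either fit (1506 of all genes with the block, 1135 without it). Same-numbered libraries had correlations of deviations of 0.39, 0.42, 0.19, 0.18 and -0.61. Libraries of different numbers were not compared in this way, so whether the numbers pair the samples was not settled. The signs of Hmox1, Gclc, Gclm, Txnrd1 and Prdx3 were kept under all 24. With limma-voom and sample quality weights Gpx4 turned to 0.090 and Sod2 to 0.0045. With the fibroblast score Gpx1 turned to -0.13, Gpx3 to -0.12 and Sod2 to 0.0028, and with the library number range Gpx1 turned to -0.016. Leaving out 1 library gave -0.063 to 0.22 for Gpx1, -0.19 to 0.10 for Gpx4 (turned without WT replicate 2) and -0.21 to 0.039 for Nqo1 (turned without WT replicate 3). The causes were not tested. Leaving the 10 most abundant and the mitochondrial genes out of the library sizes moved the median of all genes to 0.04 and that of the 10 genes to -0.08. Depth limits Nqo1 most, with 22 to 56 reads per library.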
